A study of Homo sapiens with 12 samples.

Results

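The expression of complement genes was followed in HK-2, a human cell line from immortalised proximal tubular epithelium of the kidney, after exposure to Nnm. The set held the C5a receptor gene C5AR1, the components C3, C5, C1R, C1S and CFB, and the membrane regulators CD46, CD55 and CD59. Its members were the probe sets whose annotated symbol was 1 of these 9 genes, which gave 19 of the 54675 probe sets on the array and 9 of 10907 tested genes. The genes had been selected on the measured differences between Nnm and control cells at 24 h and 48 h, so those differences are described, with no p-value, and where calls on them are counted nothing is read from the count. The groups were HK-2 cells with a low dose of Nnm for 24 h, HK-2 cells with a low dose of Nnm for 48 h, and their vehicle controls at 24 h and at 48 h, with 3 arrays labelled as biological replicates in each. The labels give Nnm as an abbreviation only, and no concentration. All cells grew in a medium that held EGF, hydrocortisone, insulin, transferrin and selenite, and were treated near confluence. Every value came from the same line, so other tubular cells are not represented.

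Complement is a cascade of plasma proteases and their targets. The proteases C1r and C1s start the classical pathway, factor B (CFB) supplies the protease of the alternative pathway, and both routes cleave C3 and then C5. The C5 fragment C5a signals through C5AR1, a G-protein-coupled receptor best known from neutrophils and macrophages, while CD46, CD55 and CD59 shield a cell's own surface from complement. Tubular epithelium is a known local source of several complement proteins in the kidney, in addition to those made by the liver.

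Expression values were on the log2 scale after background correction and normalization by the authors, and 40.4% to 40.8% of the probe sets on each array had a value above 4. A gene was tested when a probe set of its own exceeded 4 on at least 3 arrays, and each gene was represented by its probe set with the highest mean, which left 10907 genes. All 9 members passed, through 18 of the 19 probe sets. The probe set left out was 1 of the 5 for CD59 and lay between 2.64 and 2.78 on all arrays. The first principal component of the tested genes held 50.3% of the variance. Nnm replicates 1 and 3 scored 31.2 to 43.2 on it and Nnm replicate 2 scored 1.55 at 24 h and 3.28 at 48 h, against -34.4 to -18.6 for the 6 control arrays. Nnm replicate 2 thus stood apart from the other Nnm arrays, and many of the results that it moved are also given without it. The difference between the 5′ and 3′ control probe sets of ACTB, a measure of RNA integrity, was -1.17 to -1.09 on the 4 arrays numbered 2 and -0.86 to -0.74 on the other 8, so it followed the replicate number in Nnm and control cells alike. The cell label was checked against marker lists. All 6 epithelial markers (such as KRT8, KRT18 and CDH1) were measured above the filter. Of the 6 fibroblast markers, 3 were tested too: DCN, LUM and COL1A1 reached 12.37, 10.46 and 8.92, against 7.83 for CDH1. The other 3 fibroblast markers stayed between 2.02 and 3.13. Of the 10 proximal tubule markers with a probe set of their own, DPP4 and PAX8 were tested, and the other 8, among them the transporters and receptors CUBN, LRP2, SLC34A1 and AQP1, stayed between 1.95 and 3.08.

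C5AR1 was low in control cells and higher in every culture with Nnm at both times. Its probe set read 8.57, 5.88 and 8.06 in Nnm cells at 24 h, against 4.02, 3.75 and 3.68 in control cells. The 48 h arrays read 8.09, 6.12 and 7.65 in Nnm cells, against 4.67, 4.11 and 4.54 in control cells. The groups did not overlap at either time, and Nnm replicate 2 was the lowest Nnm array at both. The mean was 7.51 ± 1.43 in Nnm cells and 3.82 ± 0.18 in control cells at 24 h (SD, n = 3 each), a difference of 3.69 log2 units (SE 0.64) or 12.9-fold. The 48 h mean was 7.28 ± 1.03 in Nnm cells and 4.44 ± 0.29 in control cells (SD, n = 3 each), a difference of 2.84 (SE 0.64) or 7.18-fold. By size of the rise C5AR1 was number 6 of 10907 genes at 24 h and number 10 at 48 h. Same-numbered arrays differed by 4.55, 2.13 and 4.38 at 24 h and by 3.41, 2.01 and 3.11 at 48 h. Without both Nnm replicate 2 arrays the difference was 4.50 at 24 h and 3.43 at 48 h. The value exceeded 4 on 6 of 6 Nnm arrays and 4 of 6 control arrays, so control levels sat near the low end of the scale, where the authors' background correction weighs most and the size of a fold is least certain.

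**Figure D1:**
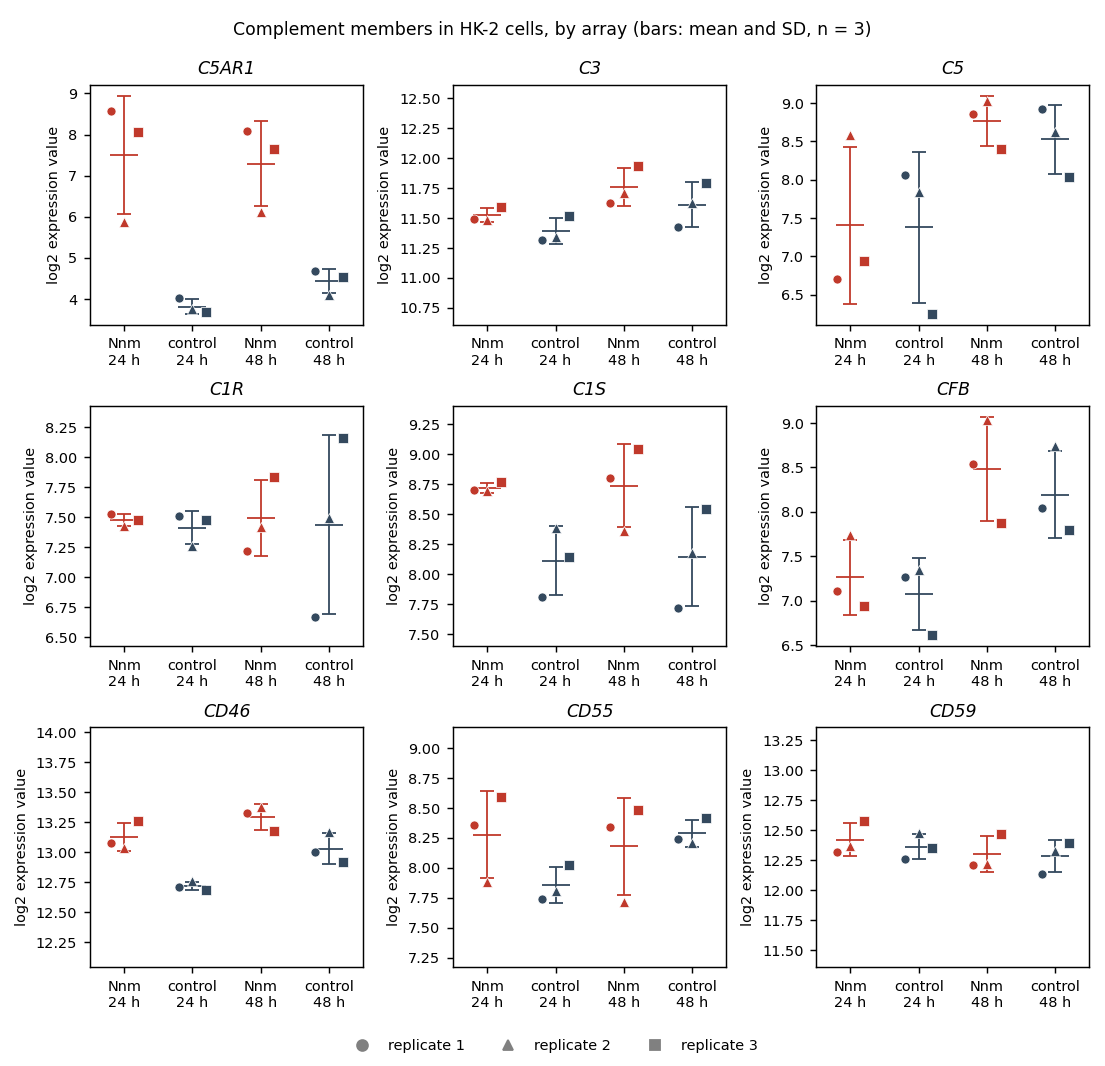
Log2 expression of the 9 members on each array (vertical axes, one scale per gene), with Nnm left of control at 24 h and at 48 h. Symbols stand for replicates and bars for the mean and SD (n = 3). C5AR1 lies between 5.88 and 8.57 on Nnm arrays and between 3.68 and 4.67 on control arrays, while most other members overlap between treatments.

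Whether the C5AR1 difference itself changed with time was tested. This contrast is built from the 24 h and 48 h differences on which the genes were selected. For any member its p-value is therefore not independent of that selection. The C5AR1 difference was 0.85 log2 units smaller at 48 h than at 24 h (SE 0.90), which did not pass (adjusted p = 0.917, limma with Benjamini-Hochberg adjustment over all genes). Between 48 h and 24 h, C5AR1 differed by -0.22 in Nnm cells (adjusted p = 0.938) and by 0.62 in control cells (adjusted p = 0.675, SE 0.64 for both). The 3 control arrays at 48 h were all above the 3 at 24 h.

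The annotated C5AR1 gene spans chr19:47307477-47322066 on GRCh38.p14. The 250 bases before the start site that the RefSeq promoter table gives for C5AR1 (plus strand, chr19:47309611-47309860) are shown because it was the member with the largest treatment difference. The table's start site is not the gene's annotated start: the window lies inside the annotated gene, and ends 2.38 kb past its first base. Capitals mark motif matches.
C5AR1: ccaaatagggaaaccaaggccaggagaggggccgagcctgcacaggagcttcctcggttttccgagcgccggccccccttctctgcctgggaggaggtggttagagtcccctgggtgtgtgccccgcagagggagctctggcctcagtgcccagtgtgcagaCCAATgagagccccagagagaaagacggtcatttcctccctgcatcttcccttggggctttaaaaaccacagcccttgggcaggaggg
Both strands were searched for 6 motifs, spelled CCAAT for the CCAAT box, TATAAA for the TATA box, TGANTCA for AP-1 sites, TGACNNNGC for the antioxidant response element, CACGTG for the E-box and GGGCGG for the GC box. The window had a GC content of 62% and 1 match, a CCAAT box that begins 88 bases before the start site, a motif held by 33.0% of 27305 promoter windows of the same length. A match describes these letters only. Promoter windows were matched for 7 of the 9 members.

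The relatives of C5AR1 among chemoattractant receptors stayed below the filter. Of 12 listed receptors, 11 had a probe set of their own and none was tested: their 21 probe sets lay between 1.94 and 3.77 on all arrays. C5AR2, the second C5a receptor, read 2.18 to 2.28, and C3AR1, the C3a receptor, read 2.43 to 2.82. Leukocyte markers, which would mark blood cells that carry C5AR1, were low on all arrays. All 11 with a probe set of their own, among them PTPRC, CD14, CSF1R and CSF3R, lay between 1.93 and 3.15, so 0 of 11 were tested. Their summed linear level was 64.4 to 65.4 in Nnm cells and 63.0 to 65.6 in control cells at 24 h, and 63.6 to 64.2 in Nnm cells and 64.4 to 65.5 in control cells at 48 h.

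Of the genes that carry or end a C5AR1 signal, 12 of 17 listed were measured above the filter. GRK5, a kinase that phosphorylates active receptors, read 6.51, 4.06 and 6.47 in Nnm cells at 24 h, against 4.19, 3.15 and 3.17 in control cells. Its lowest Nnm array, again replicate 2, overlapped the control arrays. It exceeded 4 on 6 of 6 Nnm arrays and 1 of 6 control arrays, so it entered through its Nnm values, and its differences of 2.18 at 24 h and 1.85 at 48 h (SE 0.68) are given as a description. Without both Nnm replicate 2 arrays these differences were 2.99 and 2.41. Of the other 11 genes, 2 fell and 0 rose at 24 h, and 0 passed at 48 h (limma, adjusted p under 0.05), where 19.4% of all tested genes passed at 24 h and 13.8% at 48 h. Without both Nnm replicate 2 arrays both genes that fell at 24 h passed at 48 h too, GNAI3 at -0.38 (adjusted p = 0.0302) and ARRB1 at -0.52 (adjusted p = 0.0273). The G-protein subunit gene GNAI3 fell by 0.42 at 24 h (SE 0.12, adjusted p = 0.0379), with 11.73, 11.82 and 11.68 in Nnm cells against 12.06, 12.14 and 12.30 in control cells. Its groups did not overlap, but the call was made in 3 of 12 fits without 1 array (adjusted p 0.0201 to 0.138), and the mean of its 3 probe sets gave -0.21 (adjusted p = 0.232). ARRB1, the gene of beta-arrestin 1, which uncouples active receptors, had no settled direction: its probe set with the highest mean fell by 0.79 at 24 h (adjusted p = 0.0291), whereas the mean of its 7 probe sets gave 0.70 (adjusted p = 0.0285). RPS19, whose protein binds C5AR1 outside the ribosome, was the list's most highly read gene and differed by 0.11 at 24 h and 0.12 at 48 h (adjusted p = 0.372 and 0.339).

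Of the membrane regulators, CD46 was slightly higher on every Nnm array, and CD59 was nearly equal between treatments. CD46, the cofactor that lets factor I cut C3b and C4b on the cell surface, read 13.08, 13.04 and 13.26 in Nnm cells at 24 h, against 12.71, 12.76 and 12.69 in control cells. At the later time it read 13.33, 13.38 and 13.18 in Nnm cells, against 13.01, 13.17 and 12.92 in control cells. On this probe set all Nnm arrays were above all control arrays of the same time, with 13.18 against 13.17 as the closest values at 48 h. The difference was 0.41 (SE 0.11) at 24 h, or 1.33-fold, and 0.26 (SE 0.11) at 48 h. Both remaining CD46 probe sets gave 0.50 at 24 h with separate groups. At 48 h they gave 0.11 and 0.17 with overlapping groups. One of them is of the type that can also bind related sequences.

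CD55, which speeds the decay of C3 and C5 convertases, had 8.36, 7.88 and 8.60 in Nnm cells at 24 h, against 7.74, 7.81 and 8.03 in control cells. The 48 h values were 8.34, 7.72 and 8.48 in Nnm cells, against 8.24, 8.21 and 8.41 in control cells. The groups overlapped at both times, and Nnm replicate 2 was the lowest Nnm array at both. The difference was 0.42 (SE 0.22) at 24 h and -0.11 (SE 0.22) at 48 h, where it was 0.12 without both Nnm replicate 2 arrays. Its other probe sets gave 0.48 and 0.63 at 24 h, and -0.28 and -0.22 at 48 h. The difference between the times was -0.53 (SE 0.31), which did not pass (adjusted p = 0.819). CD59, which blocks the membrane attack complex, had 12.32, 12.37 and 12.58 in Nnm cells at 24 h, against 12.26, 12.48 and 12.35 in control cells. The difference was 0.06 (SE 0.12) at 24 h and 0.01 (SE 0.12) at 48 h. At 48 h 1 of its 4 kept probe sets stood apart, with 8.26 ± 0.46 in Nnm cells and 7.68 ± 0.07 in control cells (SD, n = 3 each), while the others differed by 0.01 to 0.05. CD46 and CD55 are neighbours on the long arm of chromosome 1, with starts 430 kb apart.

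The CD46 promoter window is shown because all 3 Nnm arrays exceeded the control arrays at both times on the probe set that stood for the gene (GRCh38.p14, plus strand, chr1:207751788-207752037, RefSeq).
CD46: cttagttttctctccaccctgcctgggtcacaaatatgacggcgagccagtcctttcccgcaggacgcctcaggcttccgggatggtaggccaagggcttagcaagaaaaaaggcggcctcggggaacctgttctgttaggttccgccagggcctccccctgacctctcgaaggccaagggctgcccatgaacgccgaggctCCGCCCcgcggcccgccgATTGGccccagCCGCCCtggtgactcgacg
It held 1 CCAAT box, on the minus strand and 30 bases before the start, and 2 GC boxes, which begin 48 and 19 bases before it, without overlap. GC boxes occurred in 42.3% of all promoter windows. The CD55 window held 1 GC box at 46 bases and the CD59 window 1 CCAAT box at 150 bases.

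The classical pathway proteases lie side by side on chromosome 12, C1S at chr12:7060718-7071032 and C1R at chr12:7080219-7092445. C1S was higher in Nnm cells in every same-numbered pair, while C1R was nearly equal on average. C1S had 8.70, 8.69 and 8.77 in Nnm cells at 24 h, against 7.81, 8.39 and 8.14 in control cells. The later values were 8.81, 8.36 and 9.05 in Nnm cells, against 7.72, 8.18 and 8.54 in control cells. The groups were separate at 24 h and overlapped at 48 h. The difference was 0.61 (SE 0.23) at 24 h and 0.59 (SE 0.23) at 48 h, about 1.5-fold, and every same-numbered pair was higher in Nnm cells, by 0.18 to 1.09, as held for 33.5% of all genes at 24 h and 34.4% at 48 h. The second C1S probe set gave 0.48 and 0.57. C1R had 7.53, 7.42 and 7.48 in Nnm cells at 24 h, against 7.51, 7.26 and 7.48 in control cells, and differed by 0.06 (SE 0.30) at 24 h and 0.05 (SE 0.30) at 48 h. Its control arrays at 48 h ran widely, with 6.67, 7.49 and 8.16.

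The central components showed small or uneven treatment differences. C3 was 11.52 ± 0.06 in Nnm cells and 11.39 ± 0.11 in control cells at 24 h, and 11.76 ± 0.16 in Nnm cells and 11.61 ± 0.19 in control cells at 48 h (SD, n = 3 each). It differed by 0.13 and 0.15 (SE 0.12), with overlapping groups. C5 had 6.70, 8.58 and 6.94 in Nnm cells at 24 h, against 8.06, 7.83 and 6.25 in control cells. Both groups were widely spread, which left its difference of 0.03 (SE 0.54) without a direction: without both Nnm replicate 2 arrays it was -0.56. CFB had 7.11, 7.74 and 6.94 in Nnm cells at 24 h, against 7.27, 7.34 and 6.61 in control cells. It differed by 0.19 at 24 h and 0.29 at 48 h (SE 0.35), and by -0.05 at 24 h without both Nnm replicate 2 arrays. Its second probe set lay low, between 4.72 and 5.26, and differed by 0.01 and -0.10.

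**Figure D2:**
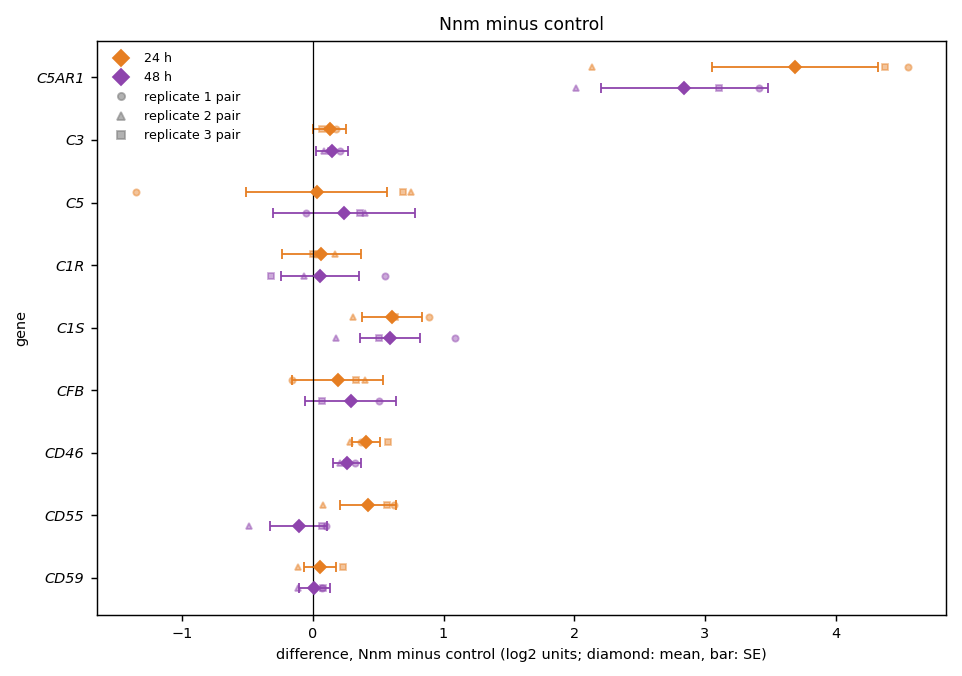
Difference between Nnm and control (horizontal axis, log2 units) for the 9 members at 24 h and 48 h. Diamonds and bars give the mean and the SE of the fit, and pale symbols the same-numbered pairs. C5AR1 stands at 3.69 and 2.84, and the other 8 members lie between -0.11 and 0.61.

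Over the set, 2 of 9 members (C5AR1 and CD46) passed at 24 h, where 19.4% of all genes did, and 1 of 9 (C5AR1) at 48 h, where 13.8% did. Groups did not overlap for 3 members at 24 h (C5AR1, C1S and CD46), against 39.8% of all genes, and for 2 at 48 h (C5AR1 and CD46), against 36.1%. The median difference was 0.19 over the members and 0.01 over all genes at 24 h, and 0.24 over the members and 0.02 over all genes at 48 h. With the replicate number as a block, which the arrays bear out as a pairing, 4 members passed at 24 h (C1S and CD55 in addition), where 38.8% of genes did, and C5AR1 alone at 48 h, where 32.2% did. Leaving out both Nnm replicate 2 arrays added CD55 at 24 h, where 34.0% of genes passed, and C1S at 48 h, where 28.9% did. None of these calls, overlap counts and medians is independent of how the members were chosen. The C5AR1 call at 48 h was not made without Nnm replicate 1 or 3 or any control array of that time, and the CD46 call at 24 h was not made without replicate 1 or 3 of either group at that time.

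CFB and C5 were higher at 48 h than at 24 h in both treatments. CFB had 8.54, 9.03 and 7.87 in Nnm cells at 48 h, against 7.11, 7.74 and 6.94 at 24 h. In control cells it had 8.04, 8.74 and 7.80 at 48 h, against 7.27, 7.34 and 6.61 at 24 h. Every 48 h array was above every 24 h array of the same treatment. The difference was 1.22 (SE 0.35), or 2.33-fold, in Nnm cells and 1.12 (SE 0.35), or 2.17-fold, in control cells. It did not pass without the replicate block (adjusted p = 0.261 in Nnm cells and 0.188 in control cells) and passed with it (adjusted p = 0.00788 in Nnm cells and 0.00548 in control cells). The second CFB probe set, low throughout, differed by 0.07 in Nnm cells and 0.19 in control cells over time (SE 0.14). On the first, same-numbered cultures differed by 1.43, 1.29 and 0.93 in Nnm cells and by 0.77, 1.40 and 1.19 in control cells.

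The CFB gene lies at chr6:31946095-31952084, and its promoter window is shown as that of the member with this time difference (GRCh38.p14, plus strand, chr6:31945845-31946094, RefSeq).
CFB: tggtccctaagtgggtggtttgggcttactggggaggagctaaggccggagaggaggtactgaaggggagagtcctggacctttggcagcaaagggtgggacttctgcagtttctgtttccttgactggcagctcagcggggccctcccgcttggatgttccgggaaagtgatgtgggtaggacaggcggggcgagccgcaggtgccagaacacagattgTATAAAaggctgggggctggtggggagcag
Its only match was a TATA box 30 bases before the start, a motif found in 11.1% of all promoter windows. The window held no match to the other 5 motifs.

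C5 had 8.86, 9.03 and 8.40 in Nnm cells at 48 h, against 6.70, 8.58 and 6.94 at 24 h. In control cells it had 8.92, 8.63 and 8.04 at 48 h, against 8.06, 7.83 and 6.25 at 24 h. It was higher at 48 h in all 6 same-numbered pairs, by 0.45 to 2.16, as were 20.8% of all genes in Nnm cells and 26.8% in control cells, but the times overlapped in both treatments. The difference was 1.36 (SE 0.54, adjusted p = 0.421) in Nnm cells and 1.15 (SE 0.54, adjusted p = 0.341) in control cells, and with the block it did not pass either (adjusted p = 0.108 and 0.104). C3 differed by 0.23 (SE 0.12, adjusted p = 0.522) in Nnm cells, with separate groups, and by 0.22 (adjusted p = 0.428) in control cells. In control cells CD46 differed by 0.31 (SE 0.11, adjusted p = 0.221) and CD55 by 0.43 (SE 0.22, adjusted p = 0.370), both with separate groups. In Nnm cells the same genes differed by 0.17 (adjusted p = 0.602) and -0.10 (adjusted p = 0.912) with overlapping groups.

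None of the 9 members passed for time without the block, where 0.119% of all genes did in Nnm cells and 0.128% in control cells. Groups did not overlap for 2 members in Nnm cells (C3 and CFB), against 12.7% of all genes, and for 4 in control cells (C5AR1, CFB, CD46 and CD55), against 26.3%. With the block CFB passed in both treatments, as did 2.29% of all genes in Nnm cells and 8.47% in control cells. No member, and 0% of all genes, passed the test of a treatment difference that changed with time, and the largest members' values were those of C5AR1 and CD55 above. With the block no member passed it either, and 0.0183% of all genes did. For the members this test is not independent of how they were chosen.

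**Figure D3:**
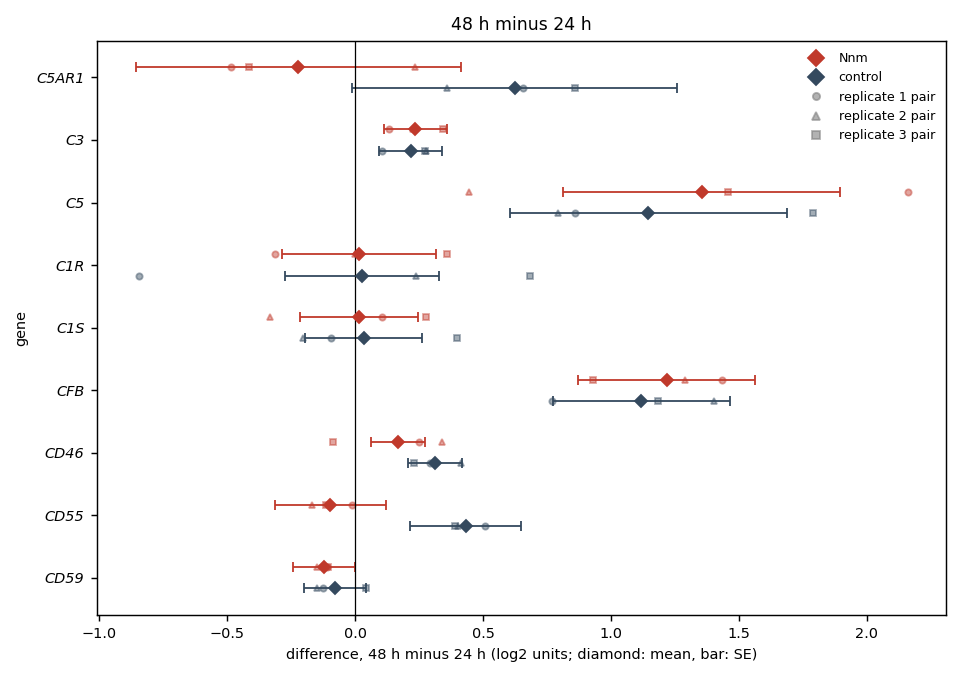
Difference between 48 h and 24 h (horizontal axis, log2 units) for the 9 members in Nnm and in control cells, with the mean and SE of the fit and the same-numbered pairs. CFB lies at 1.22 and 1.12 and C5 at 1.36 and 1.15, with every pair above 0.

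The rest of the complement system was mostly below the filter in these cells. Of 49 other complement genes listed, 41 had a probe set of their own and 4 were tested. The other 37 had 65 probe sets between 1.80 and 4.83, the highest being one for CFI, the C3b-cleaving protease. Those not tested included both other alternative pathway genes and all 6 of the terminal pathway. Of the 4 tested genes, 1 rose and 1 fell at each time, where 19.4% of all genes passed at 24 h and 13.8% at 48 h.

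C1RL, a protease related to C1R whose gene lies next to it, had 9.32, 9.17 and 9.00 in Nnm cells at 48 h, against 8.05, 8.36 and 8.13 in control cells. The groups did not overlap, and C1RL rose by 0.98, or 1.98-fold, at 48 h (SE 0.24, adjusted p = 0.0240). At 24 h the difference was 0.34 (adjusted p = 0.322), with Nnm replicate 2 at 8.96 and the other Nnm arrays at 7.97 and 7.98, and it was 0.0092 (adjusted p = 0.972) without both Nnm replicate 2 arrays. The call at 48 h was not made without replicate 1 or 3 of either group at that time.

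CLU, the gene of clusterin, which binds the terminal complex, had 13.33, 12.90 and 13.20 in Nnm cells at 24 h, against 12.75, 12.16 and 12.24 in control cells. After 48 h it had 14.02, 13.66 and 13.82 in Nnm cells, against 13.50, 13.14 and 13.11 in control cells. All Nnm arrays were above all control arrays of the same time. CLU rose by 0.76, or 1.69-fold, at 24 h (SE 0.19, adjusted p = 0.0214), and the difference at 48 h was 0.58 (adjusted p = 0.0612, or 0.00447 with the replicate block). Without both Nnm replicate 2 arrays it passed at 48 h, at 0.67 (adjusted p = 0.0307). The call at 24 h was not made without Nnm replicate 1 or 3 or control replicate 2 or 3 of that time.

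C1QBP, a mitochondrial protein first described as a C1q-binding protein, had 11.38, 11.57 and 11.56 in Nnm cells at 24 h, against 12.29, 12.06 and 12.47 in control cells. It fell by 0.77 at 24 h (SE 0.15, adjusted p = 0.0103) and fell by 0.63 at 48 h (adjusted p = 0.0227), with separate groups at both times. The call was not made without control replicate 3 at 24 h, nor at 48 h without replicate 1 or 3 of either group. CFHR2, a factor H-related protein, had 5.71, 7.19 and 6.01 in Nnm cells at 48 h, against 6.96, 7.55 and 7.04 in control cells. The difference was -0.43 (adjusted p = 0.376) at 24 h and -0.88 (SE 0.33, adjusted p = 0.0967, or 0.0151 with the block) at 48 h. Without both Nnm replicate 2 arrays it fell at both times, by 0.62 (adjusted p = 0.0288) and by 1.33 (adjusted p = 0.00129). Its probe set is of the type that can bind related sequences, which the factor H family has.

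**Figure D4:**
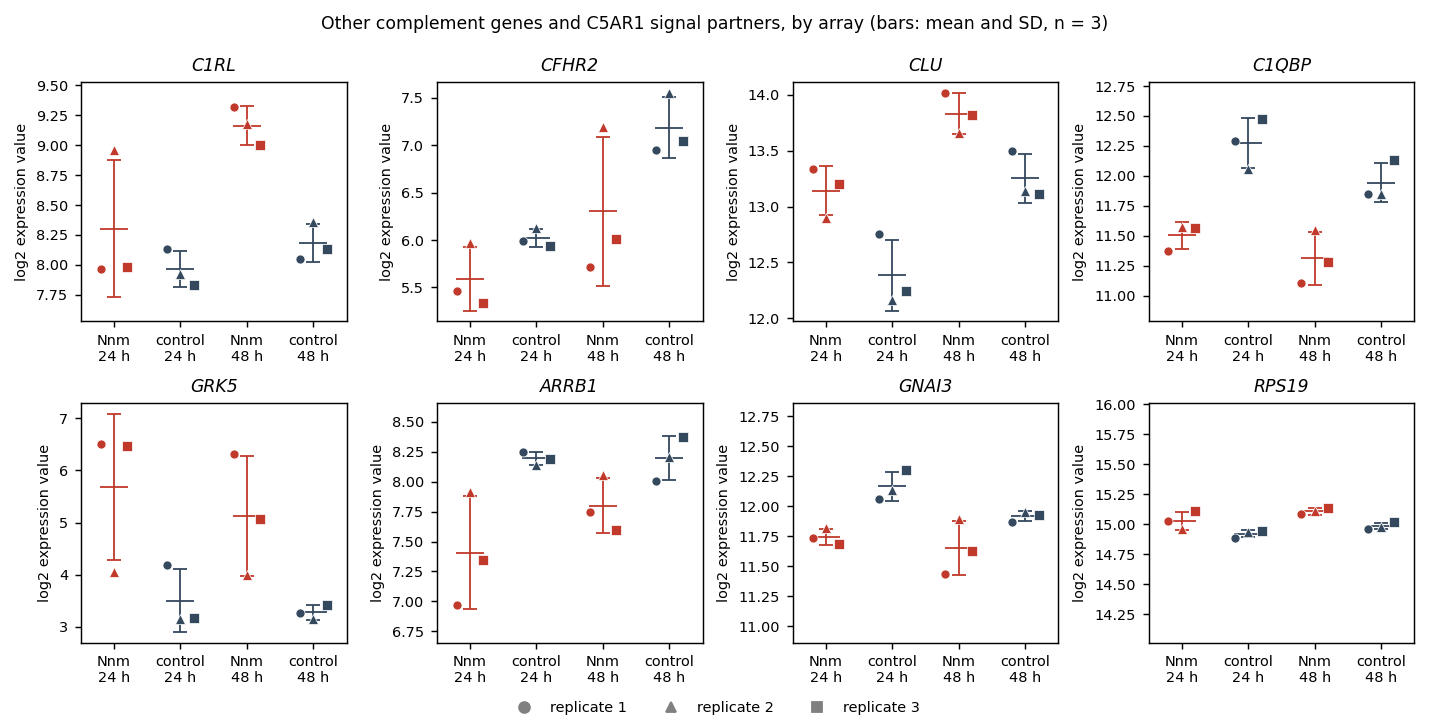
Log2 expression on each array of the 4 tested complement genes outside the set and of 4 signal partners of C5AR1, with Nnm left of control at each time and bars for the mean and SD (n = 3). CLU lies higher and C1QBP lower on all Nnm arrays than on the control arrays of the same time.

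Markers of the line's own type, proximal tubule and epithelium, and of other cell types moved in part with treatment. Their part in the results above was not tested. With all arrays and no block, 19.4% of all genes passed at 24 h and 13.8% at 48 h. With the replicate block 38.8% and 32.2% did, and without both Nnm replicate 2 arrays 34.0% and 28.9%. The 2 tested proximal tubule markers were higher in Nnm cells. DPP4, a brush border peptidase, rose by 0.77 at 24 h (adjusted p = 0.0220) and by 1.19 at 48 h (adjusted p = 0.00659). PAX8, a transcription factor of the renal lineage, rose by 0.65 at 24 h (adjusted p = 0.0398), with a difference of 0.61 at 48 h (adjusted p = 0.0599, or 0.00510 with the replicate block). Without both Nnm replicate 2 arrays PAX8 passed at 48 h, at 0.80 (adjusted p = 0.00694). The summed linear level of the 10 proximal tubule markers was 6491 to 7775 in Nnm cells and 3941 to 4849 in control cells at 24 h, and 9885 to 11385 in Nnm cells and 5208 to 5722 in control cells at 48 h. The other 8 markers lay between 1.95 and 3.08 in log2 units, so this sum repeats DPP4 and PAX8 and is no rise of the list. Hepatocyte markers, listed because the liver makes most complement, had 2 of 5 tested. SERPINA1, which other epithelia also express, rose by 0.62 at 48 h (adjusted p = 0.0276), and with the block also at 24 h, by 0.39 (adjusted p = 0.0184), and FGB fell by 0.61 at 24 h (adjusted p = 0.00563). The summed level of the hepatocyte markers was 5729 to 8058 in Nnm cells and 4428 to 6119 in control cells at 24 h, and 7566 to 9494 in Nnm cells and 5293 to 5556 in control cells at 48 h. SERPINA1 set this sum almost alone, so it is no rise of the list. The 3 markers not tested lay between 1.94 and 3.21 in log2 units and FGB reached at most 5.71, against 13.21 for SERPINA1. Of the fibroblast markers, 3 of 6 were tested: COL1A1 fell by 0.53 at 48 h (adjusted p = 0.0491), while LUM differed by 0.47 at 48 h (adjusted p = 0.0694, or 0.0451 with the block), and DCN did not pass. Without both Nnm replicate 2 arrays LUM rose by 0.60 at 48 h (adjusted p = 0.0182). Of the 6 epithelial markers 0 passed with all arrays and no block. Without both Nnm replicate 2 arrays the cadherin gene CDH2 alone passed, at 0.74 at 24 h and 0.86 at 48 h (adjusted p = 0.0246 and 0.0160). With the block CDH2 rose by 0.57 at 24 h and 0.72 at 48 h (adjusted p = 0.00550 and 0.00352). The keratin genes were lower with the block: KRT8 fell by 0.57 and by 0.70 (adjusted p = 0.00549 and 0.00377) and KRT18 fell by 0.46 at 24 h (adjusted p = 0.00842). The single endothelial marker tested of 5, PECAM1, differed by 0.46 at 48 h (adjusted p = 0.0652, or 0.0275 with the block). Only 1 of its 5 probe sets was kept, and it read 3.80 to 4.66, near the filter, where the background correction weighs most. In these bulk cultures fewer cells of a type and less RNA per cell cannot be told apart.

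The nearest tested genes on the chromosome were set beside the members, up to 3 on each side. Untested genes between them were passed over, so a neighbour need not adjoin its member. Of 42 neighbours that were not members, 4 rose and 8 fell at 24 h, where 19.4% of all genes passed, and 3 rose and 3 fell at 48 h, where 13.8% passed. With the replicate block 5 rose and 10 fell at 24 h, where 38.8% of all genes passed. At 48 h 7 rose and 6 fell with the block, where 32.2% of all genes passed. Without both Nnm replicate 2 arrays 8 rose and 9 fell at 24 h, where 34.0% of all genes passed. At 48 h 6 rose and 6 fell without these arrays, where 28.9% of all genes passed. Of the neighbours of C5AR1, KPTN alone passed with all arrays and no block, and it fell by 0.46 at 24 h (adjusted p = 0.0436), with starts 168 kb apart. Without both Nnm replicate 2 arrays its neighbour DHX34 also rose, by 0.75 at 24 h (adjusted p = 0.0336). Next to CFB, SNHG32 rose by 0.85 at 24 h and by 0.80 at 48 h (adjusted p = 0.0130 and 0.0180), and SKIC2 fell by 0.77 at 24 h (adjusted p = 0.0386). Beside C5, PHF19 fell by 0.99 at 24 h and 1.04 at 48 h (adjusted p = 0.00752 and 0.00738), and PSMD5 fell by 0.50 at 24 h (adjusted p = 0.0300). Around C1R and C1S, PHB2 fell by 0.45 and by 0.43 (adjusted p = 0.0272 and 0.0405) and EMG1 fell by 0.76 at 24 h (adjusted p = 0.0440), while C1RL rose at 48 h as given above. Around CD55 and CD46, C1orf116 fell by 2.36 at 24 h (adjusted p = 0.00859) and PFKFB2 fell by 2.19 at 48 h (adjusted p = 0.0159). Their starts lay 303 kb and 287 kb from that of CD55. G0S2, with its start 1923 kb from that of CD46, rose by 2.55 at 24 h and by 2.71 at 48 h (adjusted p = 0.0418 and 0.0413). LAMB3, 1863 kb from CD46, differed by 1.69 at 24 h and 1.96 at 48 h without passing (adjusted p = 0.0827 and 0.0633). Without both Nnm replicate 2 arrays LAMB3 passed, at 2.11 and 2.87 (adjusted p = 2.0e-04 and 6.6e-05). Beside CD59, HIPK3 rose by 0.62 and FBXO3 rose by 0.79 at 24 h (adjusted p = 0.00913 and 0.0131), and NAT10 fell by 0.62 (adjusted p = 0.0163). Without both Nnm replicate 2 arrays NEU1, beside CFB, rose by 0.72 and LINC00294, beside CD59, by 0.47 at 24 h (adjusted p = 0.00614 and 0.0366). No tested neighbour of C3 passed without the block.

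Genes with the pattern most like that of C5AR1 were ranked over the 12 log2 values. The first 8 were FAM171B, TIAM2, SLC16A9, LRP11, SP4, KCNK1, LINC00623 and KLHL14, with Pearson's r of 0.982 to 0.991. Since the arrays share the treatment, the ranking was repeated on the deviations from the group means, which for C5AR1 include the gap between Nnm replicate 2 and the other Nnm arrays. That gave KLHL2, CAPN5, THEMIS2, PHLDB3, SH3GLB1, YPEL3, ERLEC1 and MKNK2, with r of 0.983 to 0.992. Both lists are descriptions over 12 arrays of a single line. Among the 36 pairs of members, r over the 12 values ran from -0.50 to 0.88 and over the deviations from -0.85 to 0.86.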

How the data were processed

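Affymetrix arrays were hybridised with biotin-labelled cRNA made from total RNA of 12 HK-2 cultures, per the labels' protocols. The authors deposited log2 expression values per probe set, made with GCRMA, per the submitters' processing notes; the log base was read from the range of the values. GCRMA subtracts a modelled background, so differences between low values depend on it. Of 54675 probe sets, 62 were controls, 41091 had 1 gene in the platform annotation, 1801 several and 11721 were not listed. Symbols were looked up by gene ID in the RefSeq table of GRCh38.p14 (41037 IDs found, 0 symbols changed). Probe sets with several genes were not used.

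The filter kept 19832 probe sets, those with a log2 value above 4 on no fewer than 3 arrays, and the one with the highest mean stood for each of 10907 genes. limma 3.58.1 in R 4.3.3 fitted 4 group means over the 12 arrays with eBayes, and p-values were adjusted by Benjamini-Hochberg over all genes, with a threshold of 0.05. The fit was also run on simulated data with noise drawn independently for each array. Those data held no replicate effect and no outlying array, so that run does not show how the fit behaves with either. Labelled biological replicates may still share a culture history, and p-values measure only the spread between these arrays, whose number limits the precision. Same-numbered arrays deviated together from their group means (r of 0.318 to 0.696). Deviations within a group cancel out, which lowers r between unlike numbers (-0.587 to 0.119), so that range is no separate evidence. The number comes from the labels, and it was also fitted as a block. Alternatives were filters, probe set summaries, scalings, eBayes settings, arrays left out and, added after the data were seen, each probe set tested on its own. Figures were drawn with matplotlib 3.10.9. Named genes were the members, list genes that passed or had the highest mean level, tested neighbours and the 8 genes most like C5AR1 by r. The members and lists were chosen with earlier results of these data known. Listed genes without a probe set of their own in the annotation were not analysed here.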

Additional observations from a re-analysis of the deposited data

How the results depend on the processing

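Only 3 arrays per group, and low values near the background for C5AR1 in control cells, limit what can be seen. Without a filter on low values, which puts more genes into the fit and the adjustment, 0 members and 1 other complement gene passed at 48 h. The cause was not tested. Fits of only the 2 groups compared, with fewer arrays for the spread, gave 1 member and 1 other complement gene at 24 h and 1 other complement gene at 48 h. With the replicate block 38.8% of all genes passed at 24 h and 32.2% at 48 h. For time 2.29% of all genes passed with it in Nnm cells and 8.47% in control cells. The block gave 4 members at 24 h, 1 for each time comparison, and 4 other complement genes at 48 h. It also moved epithelial markers to 3 passed at 24 h and 2 at 48 h, hepatocyte markers to 2 at 24 h, and at 48 h endothelial markers to 1, fibroblast and proximal tubule markers to 2 each and neighbours to 13. Without both Nnm replicate 2 arrays 2 members (C5AR1 and C1S) and 4 other complement genes passed at 48 h, where 28.9% of all genes did. With 1 array left out, 1 to 3 members passed at 24 h and 0 to 2 at 48 h, and 0 to 2 and 0 to 4 of the other complement genes. The share of all genes was not taken without the filter, in fits of only 2 groups or with 1 array left out. Nothing is read from the counts under those settings.

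Of 581 results under other settings, 534 kept direction and side of the threshold, 17 passed newly, 14 no longer passed and 16 turned sign; the cause was not tested. Without both Nnm replicate 2 arrays the turned values were -0.56 for C5 and -0.049 for CFB at 24 h, 0.12 for CD55 at 48 h and 0.16 for the C1S difference between times. Averaged probe sets gave 0.034 for C1S, -0.0068 for CFB and 0.17 for CD59 between times, -0.0027 for CD59 at 24 h, 0.14 for CD59 in Nnm cells over time, 0.70 and 0.43 for ARRB1 at 24 h and 48 h, and 0.11 for GNAI3 at 48 h. Median centring gave -0.011 for C3 between times and -0.026 for CD59 at 48 h, and quantile normalization -0.015 for C3 between times and -0.0050 for C1R in Nnm cells over time. With 1 array left out, 53 of 708 values turned. The treatment difference at 24 h ran from -0.014 to 0.11 for C1R, -0.56 to 0.38 for C5, -0.021 to 0.11 for CD59 and -0.049 to 0.35 for CFB. At 48 h it ran from -0.33 to 0.41 for C1R, -0.0075 to 0.43 for C5, -0.26 to 0.12 for CD55 and -0.074 to 0.066 for CD59. The difference between times ran from -0.40 to 0.35 for C1R, -0.23 to 0.18 for C1S, -0.078 to 0.11 for C3, -0.14 to 0.80 for C5, -0.13 to 0.034 for CD59 and -0.18 to 0.40 for CFB. The 48 h against 24 h difference in Nnm cells ran from -0.16 to 0.15 for C1R, -0.14 to 0.20 for C1S, -1.03 to 0.36 for C5AR1 and -0.30 to 0.13 for CD55, and in control cells from -0.33 to 0.41 for C1R and -0.16 to 0.25 for C1S.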
